A study of Mus musculus with 8 samples.

Results

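The 10 neutrophil granule protein genes are Mpo, Elane, Prtn3, Ltf, Camp, Ngp, Lcn2, S100a8, S100a9 and Retnlg. They were taken by symbol from 55487 mouse genes in the count table, and all 10 were found there. Transcripts were measured by RNA-seq in dendritic cells grown with GM-CSF for 10 days from the bone marrow of wild type mice (BMDC), given as C57/bl6 in the labels and as young adult C57BL/6J females in the study's methods. The study compared 4 libraries of untreated BMDC with 4 libraries of BMDC that were sorted after they had engulfed ferroptotic Jurkat cells (BMDC-fer). The Jurkat cells, a human T-cell leukemia line, had been killed with ML162, a compound that induces ferroptosis, before the co-culture. Both groups were wild type and carried no deletion, and the study's methods describe a cell sort for the BMDC-fer and none for the untreated BMDC. The co-culture and the uptake of cells cannot be told apart in this design, nor can the sort if the untreated BMDC had none.

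Neutrophils make their granule proteins in waves as they mature in the bone marrow. Myeloperoxidase and the serine proteases of the primary (azurophil) granules are made first, by promyelocytes. The proteins of the secondary (specific) granules follow in myelocytes and metamyelocytes, and S100a8 and S100a9 build up in the cytosol of the later stages. Bone marrow cultures in GM-CSF are known to hold granulocytes and their progenitors beside dendritic cells and macrophages. The genes were therefore set out by stage: 3 primary granule genes (Mpo, Elane, Prtn3), 4 secondary granule genes (Ltf, Camp, Ngp, Lcn2), 2 cytosolic genes (S100a8, S100a9) and the resistin-like gene Retnlg, a secreted protein of neutrophils.

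The bases that precede the genes are shown because the members of a stage are made together. RefSeq upstream windows of 250 bases (build GRCm38.p6) were found for all 10 genes and were searched on both strands for letters that resemble the sites of C/EBP factors (TTNNGNAA) and of PU.1 and related ETS factors (GAGGAA), the regulators that drive granulocyte genes. The windows of 8 members follow in the direction of the gene, up to the first base in an exon of GENCODE M21. Lcn2 is left out because its window opens in an exon, and Camp because it held no match. Capitals mark the matches on either strand.
Mpo, chr11:87793534-87793580 (+ strand): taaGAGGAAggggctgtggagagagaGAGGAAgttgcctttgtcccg
Elane, chr10:79886062-79886246 (+ strand): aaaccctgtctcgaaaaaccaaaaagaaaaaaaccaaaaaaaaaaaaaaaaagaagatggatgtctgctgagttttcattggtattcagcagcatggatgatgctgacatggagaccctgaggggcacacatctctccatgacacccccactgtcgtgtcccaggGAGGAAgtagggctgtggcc
Prtn3, chr10:79879417-79879613 (+ strand): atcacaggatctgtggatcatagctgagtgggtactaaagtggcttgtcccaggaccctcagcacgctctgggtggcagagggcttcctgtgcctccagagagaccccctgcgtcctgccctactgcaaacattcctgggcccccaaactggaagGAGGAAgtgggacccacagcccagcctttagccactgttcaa
Ltf, chr9:111019042-111019270 (+ strand): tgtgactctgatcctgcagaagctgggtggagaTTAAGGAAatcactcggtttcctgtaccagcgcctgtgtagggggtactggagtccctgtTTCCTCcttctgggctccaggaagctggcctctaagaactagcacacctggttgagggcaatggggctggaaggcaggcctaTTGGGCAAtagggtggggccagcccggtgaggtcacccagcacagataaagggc
Ngp, chr9:110419558-110419746 (+ strand): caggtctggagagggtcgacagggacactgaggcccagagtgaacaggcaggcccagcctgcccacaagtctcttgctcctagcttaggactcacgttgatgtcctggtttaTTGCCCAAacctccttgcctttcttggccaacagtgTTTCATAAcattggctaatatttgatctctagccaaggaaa
S100a8, chr3:90668821-90668977 (+ strand): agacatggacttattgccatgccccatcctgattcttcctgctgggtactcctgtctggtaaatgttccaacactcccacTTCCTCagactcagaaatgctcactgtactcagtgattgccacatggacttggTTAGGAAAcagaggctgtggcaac
S100a9, chr3:90695722-90695971 (- strand): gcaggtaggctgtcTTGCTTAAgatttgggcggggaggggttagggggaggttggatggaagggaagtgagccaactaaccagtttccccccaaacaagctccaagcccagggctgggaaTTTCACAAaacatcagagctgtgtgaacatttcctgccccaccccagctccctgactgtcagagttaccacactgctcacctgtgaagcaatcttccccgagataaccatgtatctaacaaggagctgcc
Retnlg, chr16:48872358-48872607 (+ strand): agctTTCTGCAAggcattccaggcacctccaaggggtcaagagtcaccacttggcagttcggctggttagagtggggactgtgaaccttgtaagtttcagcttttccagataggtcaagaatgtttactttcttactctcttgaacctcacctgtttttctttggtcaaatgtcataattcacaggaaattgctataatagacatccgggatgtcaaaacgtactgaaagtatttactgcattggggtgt

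GAGGAA stood in the windows of all 3 primary granule genes and of Ltf, Lcn2 and S100a8, which is 60% of the members and 23.3% of 32851 mouse promoters of this length. The C/EBP-like letters stood in the windows of Ltf, Ngp, Lcn2, S100a8, S100a9 and Retnlg, again 60% of the members, and in 36.8% of all promoters. None of the 3 primary granule genes held them, and the Camp window held neither. Matches at the exon end of a window, such as a C/EBP-like match of Ngp 11 bases before the start, are counted but not printed. The letters TATAAA were found in 10% of the members (S100a8) and 12.4% of promoters, and TGTGGT, which resembles a RUNX site, in 10% (S100a9) and 14%. A match is a run of letters and was not tested as a bound site.

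Several members are neighbours in the genome. Camp, Ngp and Ltf lie on chromosome 9 within 1195.389 kb, S100a8 and S100a9 on chromosome 3 are 22.597 kb apart, and Prtn3 and Elane on chromosome 10 are 3.073 kb apart. Of 17 other tested genes between Camp and Ltf, 3 were called lower in BMDC-fer (Kif9, Setd2 and Gm35715) and 0 higher, by the thresholds given below. Over all tested genes 5.91% were called lower and 3.47% higher. The median log2 fold change of the 17 genes was -0.10, and a regional change was not tested. Mpo shares 12% of its 50-base words with Gm11505 on the opposite strand, and exons of Prtn3 overlap those of Plppr3 on the opposite strand. The use of strand in counting is not given, so reads of these pairs cannot be told apart and the values of Mpo and Prtn3 are less certain. The exons of the other 8 members overlapped no other gene.

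Library totals lay between 39326672 and 50532209 counts. Replicates 1 and 2 stood apart from replicates 3 and 4 in both groups. Per gene, the chi-square between replicates ran from 8.97 to 40.3 inside these pairs and from 136 to 341 across them, and the labels name no batch for this split. Levels are given as CPM, counts scaled to the library total with edgeR's TMM factors, and a fold change is BMDC-fer over BMDC from edgeR's fit over 15411 genes that passed a filter on low counts. A gene counts as called where its Benjamini-Hochberg adjusted p was at most 0.05 and its log2 fold change was at least 0.58 in size. A library with 3 counts of a gene, taken as the floor, stands at 0.0594 to 0.0763 CPM without the TMM factor, and these floors cover counting error only.

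All 10 members passed the filter and all 10 had a negative log2 fold change, from -1.50 for S100a8 to -4.14 for Retnlg. Their median was -3.40, beside 0.00069 over all genes tested. The list counts as selected on this same contrast of BMDC-fer with BMDC, because it was drawn up with earlier results of these libraries known, so these values are a description and carry no test. Elane, Prtn3, Ngp, Lcn2, S100a9 and Retnlg were called lower, which is 6 of 10, where 5.91% of all tested genes were called lower, 3.47% higher and 9.38% in either direction. In these same 6 genes the groups did not overlap, as in 11.6% of all tested genes in this direction. In bulk RNA, fewer cells of a type and less RNA per cell cannot be told apart. A fit that took the replicate number as a block called all 10 members lower, where it called 8.13% of tested genes lower and 4.85% higher. Whether same-numbered libraries are true pairs is not settled, since the correlations between libraries matched the numbers for replicates 1 and 2 but not for 3 and 4. DESeq2 also called all 10 lower, with 8.4% of its genes called lower and 4.89% higher. It was the more permissive tool on simulated counts, with 61 false among 227 calls, beside 8 of 131 for edgeR. Those counts were drawn with edgeR's own dispersions and without a split of the replicates. They may therefore favour edgeR and do not settle which tool is right on the real libraries.

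Of the 3 primary granule genes, Mpo encodes myeloperoxidase, which makes hypochlorous acid. It was at 0.414, 0.105, 1.47 and 0.847 CPM in BMDC replicates 1 to 4 and at 0.0809, 0, 0.12 and 0.314 CPM in BMDC-fer replicates 1 to 4. BMDC replicate 2, with 5 counts, lay inside the range of the BMDC-fer libraries, so the groups overlapped. The log2 fold change was -2.46 ± 0.93 (SE, n = 4 per group).

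Elane encodes neutrophil elastase, a serine protease. Its levels were 0.460, 0.253, 1.99 and 1.65 CPM in BMDC and 0.121, 0, 0.168 and 0.0262 CPM in BMDC-fer. Every BMDC library was above every BMDC-fer library, although BMDC-fer replicates 2 and 4 held only 0 and 1 counts. The log2 fold change was -3.70 ± 0.91 (SE, n = 4 per group).

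Prtn3 encodes proteinase 3, a serine protease beside elastase in the granule. It was at 2.14, 1.30, 3.88 and 2.67 CPM in BMDC and at 0.303, 0.685, 0.383 and 0.549 CPM in BMDC-fer. The groups were apart in all libraries, and BMDC varied 2.97-fold from lowest to highest, the narrowest range of the 10 members. Its log2 fold change of -2.38 ± 0.40 (SE) had the smallest error of the members, and it was called in each of the 8 fits that left out a library.

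Among the secondary granule genes, Ltf encodes lactoferrin, which binds iron. It was at 53.3, 5.41, 23.5 and 2.42 CPM in BMDC and at 4.43, 0.514, 0.311 and 1.36 CPM in BMDC-fer. Ltf had the widest range in BMDC, 22.1-fold, and BMDC replicate 4 lay below BMDC-fer replicate 1. Its log2 fold change was -3.66 ± 1.13 (SE).

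Camp encodes the cathelicidin antimicrobial peptide. Its levels were 10.2, 1.12, 8.44 and 1.52 CPM in BMDC and 1.46, 0.294, 0.12 and 0.497 CPM in BMDC-fer. BMDC replicate 2 lay below BMDC-fer replicate 1, and all other BMDC libraries lay above all BMDC-fer libraries. The log2 fold change was -3.14 ± 0.93 (SE).

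Ngp encodes neutrophilic granule protein, a relative of the cathelicidins and cystatins. It was at 43.8, 5.66, 41.9 and 7.25 CPM in BMDC and at 4.31, 0.171, 0.503 and 1.54 CPM in BMDC-fer. The groups did not overlap, but BMDC replicate 2 and BMDC-fer replicate 1 stood close. The log2 fold change was -3.90 ± 1.05 (SE).

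Lcn2 encodes lipocalin 2, which withholds iron from bacteria by binding their siderophores. It was at 20.8, 7.28, 55.6 and 47.0 CPM in BMDC and at 6.63, 2.91, 5.91 and 4.19 CPM in BMDC-fer. It was high in BMDC replicates 3 and 4, whereas Ltf, Camp and Ngp were high in replicates 1 and 3. The log2 fold change was -2.73 ± 0.59 (SE).

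S100a8 and S100a9 encode the subunits of calprotectin, the main cytosolic protein of neutrophils, which binds calcium and zinc. S100a8 was at 73.1, 17.9, 64.0 and 24.8 CPM in BMDC and at 23.3, 12.3, 16.3 and 11.7 CPM in BMDC-fer. S100a9 was at 78.2, 14.0, 87.0 and 20.1 CPM in BMDC and at 9.79, 0.661, 1.44 and 3.03 CPM in BMDC-fer. S100a8 overlapped between the groups and S100a9 did not.

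The log2 fold change was -1.50 ± 0.46 (SE) for S100a8 and -3.73 ± 0.93 (SE) for S100a9. The ratio of S100a8 to S100a9 counts was between 0.735 and 1.28 in the BMDC libraries. In BMDC-fer replicates 1 to 4 the ratio was 2.38, 18.6, 11.3 and 3.85. Every BMDC-fer library thus held more S100a8 than S100a9 reads, and the ratios of the groups did not overlap. The BMDC-fer counts of S100a9 behind these ratios were 484, 27, 60 and 116, and those of S100a8 were 1150, 501, 680 and 447.

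Retnlg was at 1.84, 0.442, 1.96 and 1.17 CPM in BMDC and at 0.182, 0, 0.0718 and 0.0262 CPM in BMDC-fer. The groups did not overlap, and the BMDC-fer libraries held 9, 0, 3 and 1 counts. Its log2 fold change of -4.14 ± 0.78 (SE) was the lowest of the 10, and it was called in 7 of the 8 fits that left out a library. Among the 80 values of the 10 members, 6 were at or under 3 counts, all of them in BMDC-fer, and a count of 0 in replicate 2 allows up to 0.0707 CPM without the TMM factor.

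**Figure D1:**
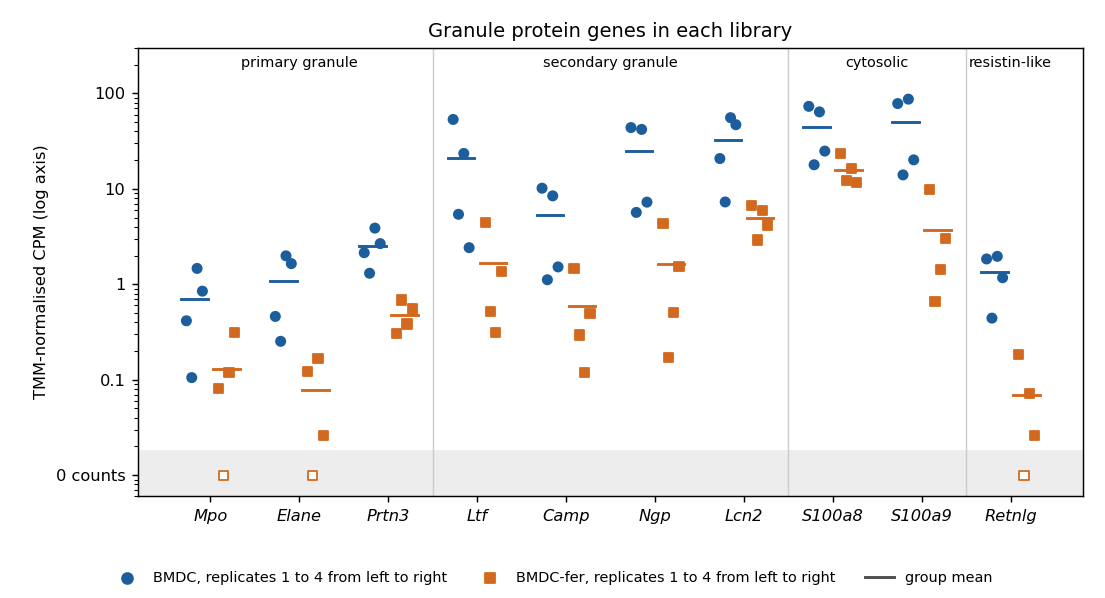
TMM-normalised CPM (vertical log axis) of the 10 granule protein genes in each of 4 BMDC libraries (circles) and 4 BMDC-fer libraries (squares), with bars at the group means and open squares for 0 counts. Elane, Prtn3, Ngp, Lcn2, S100a9 and Retnlg do not overlap between the groups, and the BMDC circles of Ltf spread over 22.1-fold.

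Summed over each stage, all stages were lower in BMDC-fer. The primary granule sum stood at 4.29 ± 2.48 CPM in BMDC against 0.688 ± 0.157 CPM in BMDC-fer (SD, n = 4), a ratio of 6.24. The secondary granule sum stood at 83.8 ± 54.3 CPM in BMDC against 8.79 ± 5.59 CPM in BMDC-fer, a ratio of 9.54. The cytosolic sum was 94.8 ± 65.3 and 19.6 ± 9.18 CPM, a ratio of 4.84, and Retnlg alone gave 1.35 ± 0.70 and 0.070 ± 0.080 CPM, a ratio of 19.3. Within replicate numbers 1 to 4 the ratio was 5.97, 2.43, 10.9 and 5.80 for the primary stage. For the secondary stage it was 7.61, 5.0, 18.9 and 7.66. For the cytosolic stage it was 4.58, 2.47, 8.52 and 3.05. The secondary stage had the highest ratio of these 3 stages at all 4 replicate numbers. The ratio of each of the 3 was lowest at number 2 and highest at number 3. The difference between stages was not tested, and a sum follows its most abundant genes.

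**Figure D2:**
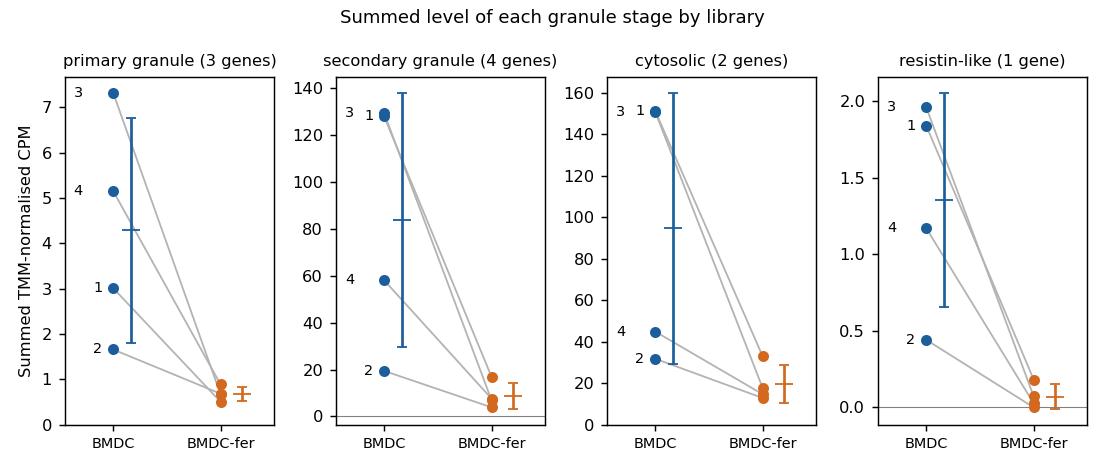
Summed TMM-normalised CPM of the primary granule, secondary granule, cytosolic and resistin-like genes in each library, with lines that join the same replicate number (printed at left) and bars for the mean ± SD of 4 libraries. All 4 lines fall in every panel, and the BMDC libraries spread widely, for example from 19.5 to 129 CPM for the secondary granule genes.

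Levels of different genes were compared per length of exon, as RPKM. In BMDC the order was S100a9 at 95.5 ± 73.0, S100a8 at 64.8 ± 39.9, Ngp at 20.2 ± 17.2, Lcn2 at 12.5 ± 8.58, Camp at 7.0 ± 6.15 and Ltf at 6.13 ± 6.78 RPKM (SD, n = 4). Retnlg at 2.28 ± 1.18, Prtn3 at 1.44 ± 0.622, Elane at 1.10 ± 0.872 and Mpo at 0.207 ± 0.172 RPKM followed. Of 9 neighbouring pairs in this order, 7 differed by less than the larger SD of the pair, and the exceptions were S100a8 with Ngp and Elane with Mpo. By their means, the primary granule genes stood below the secondary granule genes, and both cytosolic genes stood above them. Among 15373 tested genes with a length, S100a9 was at percentile 96.2 in BMDC and Mpo at percentile 8.11.

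In BMDC-fer the order was led by S100a8 at 22.9 ± 7.68 RPKM, ahead of S100a9 at 7.15 ± 7.97, Lcn2 at 1.87 ± 0.642 and Ngp at 1.33 ± 1.54 RPKM. Camp and Ltf followed at 0.781 ± 0.787 and 0.479 ± 0.552 RPKM, and Prtn3, Retnlg, Elane and Mpo lay between 0.277 and 0.0376 RPKM. Here 7 of 9 neighbouring pairs differed by less than the larger SD, and the exceptions were S100a8 with S100a9 and Prtn3 with Retnlg. S100a8 stood at percentile 85.1, S100a9 at 63.6 and Ngp at 31.1 of the tested genes in BMDC-fer, where Ngp had been at 83.4 in BMDC. With the length of the longest transcript, Lcn2 came to 23.8 RPKM in BMDC and stood above Ngp, Prtn3 came to 2.44 RPKM and stood above Retnlg, and Ltf at 7.71 RPKM stood above Camp.

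The untreated BMDC libraries were themselves uneven in these genes. The highest BMDC library exceeded the lowest by 13.9-fold for Mpo, 7.86-fold for Elane, 9.10-fold for Camp, 7.74-fold for Ngp, 7.64-fold for Lcn2, 6.22-fold for S100a9, 4.44-fold for Retnlg and 4.09-fold for S100a8. Over all 15411 tested genes the median of this ratio was 1.62 and percentile 90 was 3.92, and 9 of 10 members were above the latter, with Prtn3 the exception. BMDC replicate 2 was the lowest for 9 of 10 members, and replicate 4 for Ltf. BMDC replicate 1 was the highest for Ltf, Camp, Ngp and S100a8, and replicate 3 for the other 6. For Ltf, Camp, Ngp, S100a8 and S100a9 the 2 highest BMDC libraries were replicates 1 and 3, which come from different sides of the split seen across all genes. For Mpo, Elane, Prtn3 and Lcn2 they were replicates 3 and 4, which share a side. The lowest BMDC count of any member was 5, for Mpo, so counting error is part of its range.

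**Figure D3:**
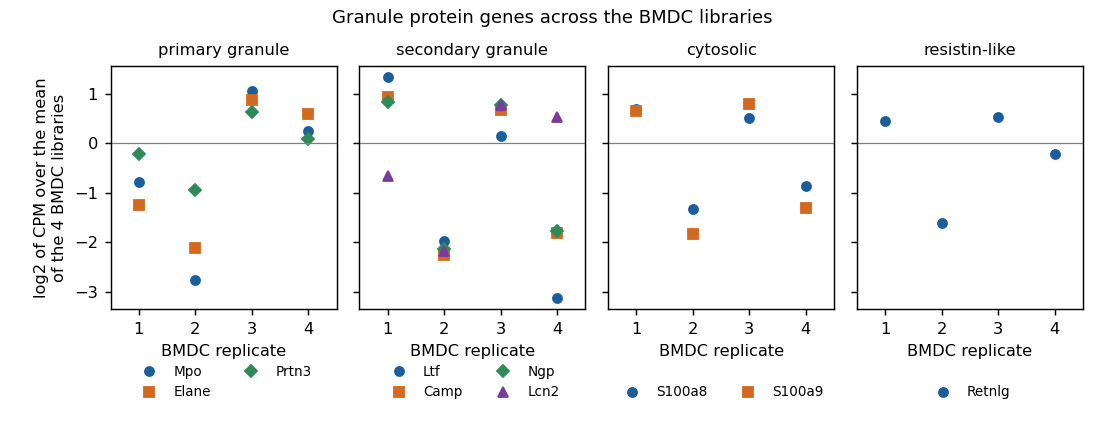
Log2 of the CPM in each untreated BMDC library over the mean of the 4 BMDC libraries (vertical axis) by replicate (horizontal axis) for the genes of each stage. Lcn2 sits high in replicates 3 and 4 like Mpo and Elane, while Ltf, Camp and Ngp sit high in replicates 1 and 3 like S100a8 and S100a9.

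The members fell into 2 patterns of variation within the groups. Deviations of log2(CPM + 0.5) from the group means were correlated over the 8 libraries, as a description, since the libraries are shared by all genes. Ltf, Camp and Ngp varied together, with r between 0.92 and 0.95, and with S100a8 and S100a9, with r between 0.84 and 0.99. Mpo, Elane and Prtn3 varied together, with r between 0.73 and 0.87. Lcn2 had r of 0.87 with Mpo, 0.94 with Elane and 0.67 with Prtn3, but 0.14 with Ltf, 0.41 with Camp and 0.47 with Ngp. Its r was 0.78 with Retnlg, 0.54 with S100a8 and 0.52 with S100a9. By this measure Lcn2 stood nearer to Mpo, Elane and Prtn3 than to Ltf, Camp and Ngp. In BMDC-fer, however, Mpo and Elane lay below the 0.5 CPM added before the log. Their deviations thus came mostly from the BMDC libraries. There Lcn2, Mpo and Elane were high in replicates 3 and 4, which share a side of the split across all genes. The r of Elane with Ltf was -0.11, and Retnlg correlated with all other members, from 0.59 to 0.93.

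**Figure D4:**
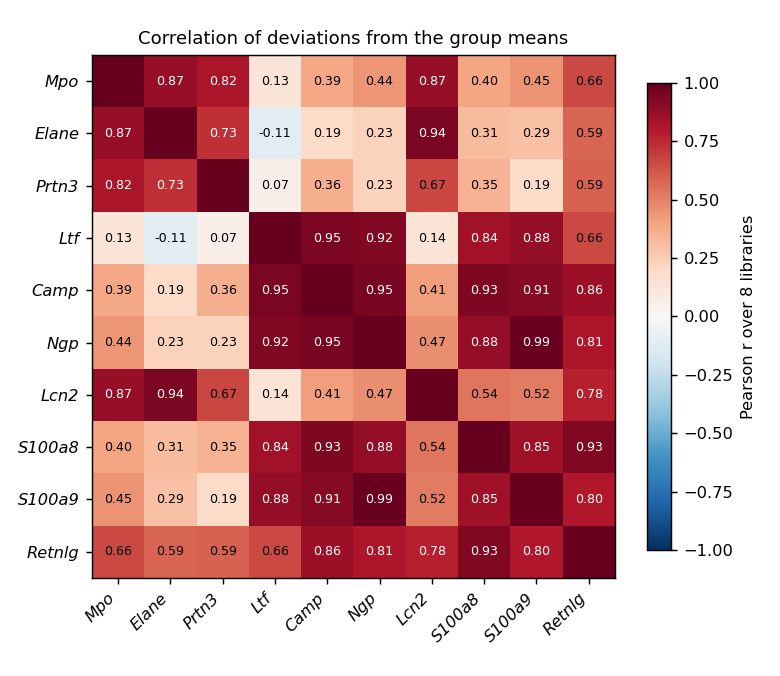
Pearson r between members (rows and columns) of their deviations from the group means, over 8 libraries, from -1 in blue to 1 in red. Mpo, Elane, Prtn3 and Lcn2 form one group, and Ltf, Camp, Ngp, S100a8 and S100a9 another, with the lowest value, -0.11, between Elane and Ltf.

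In BMDC-fer, replicate 1 was the highest library for 7 of 10 members, namely all secondary granule genes, both S100 genes and Retnlg. The primary granule genes differed from this, with Mpo highest in replicate 4, Elane in replicate 3 and Prtn3 in replicate 2. Prtn3 was in fact lowest in replicate 1. BMDC-fer replicate 2 was the lowest for 6 of 10 members.

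The direction was the same in both sets of libraries. Within replicates 1 and 2 the log2 fold change was -2.48 for Mpo, -2.38 for Elane, -1.81 for Prtn3, -3.52 for Ltf, -2.63 for Camp, -3.41 for Ngp, -1.53 for Lcn2, -1.34 for S100a8, -3.10 for S100a9 and -3.49 for Retnlg. Within replicates 3 and 4 it was -2.41 for Mpo, -4.13 for Elane, -2.80 for Prtn3, -3.97 for Ltf, -4.02 for Camp, -4.60 for Ngp, -3.33 for Lcn2, -1.65 for S100a8, -4.59 for S100a9 and -4.88 for Retnlg. Of the 10 members, 2 were called within replicates 1 and 2 (Mpo and Prtn3), and 10 within replicates 3 and 4, where these fits called 11.3% and 18% of the genes they tested lower. The count of 6 also rested on single libraries. It was 1 without BMDC-fer replicate 4, 2 without BMDC replicate 3 or BMDC-fer replicate 2 or 3, 3 without BMDC replicate 4, 4 without BMDC replicate 1 and 8 without BMDC replicate 2. The share of all tested genes called lower moved as well, to 2.35% without BMDC-fer replicate 4, 3.78% without BMDC replicate 3, 3.14% and 3.49% without BMDC-fer replicates 2 and 3, 3.84% without BMDC replicate 4, 5.32% without BMDC replicate 1 and 5.73% without BMDC replicate 2. Without BMDC-fer replicate 1 the count stayed at 6, with 4.4% of genes called lower.

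**Figure D5:**
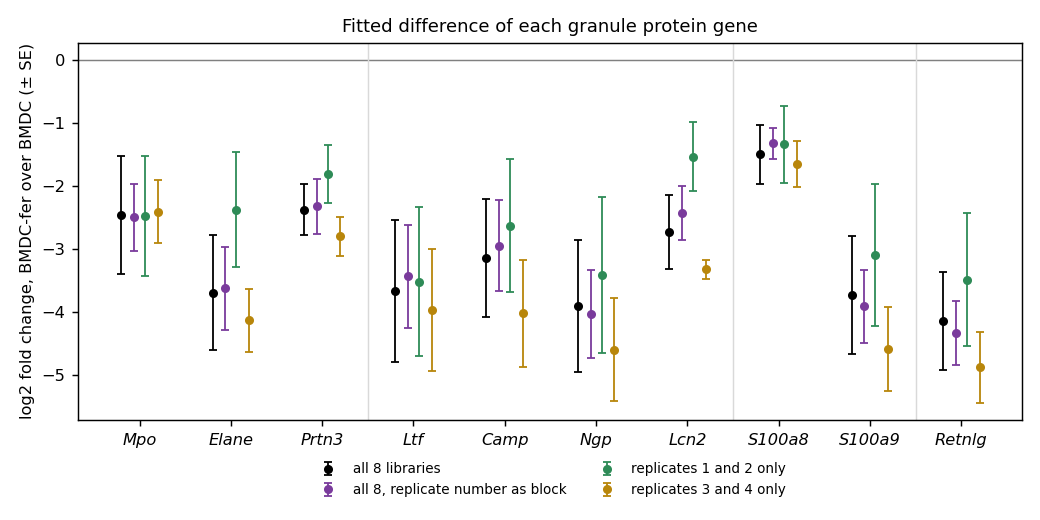
Log2 fold change ± SE of BMDC-fer over BMDC (vertical axis) for each member, fitted over all 8 libraries, with a block for the replicate number, and within replicates 1 and 2 or 3 and 4. All points lie below 0, and S100a8 lies nearest to it at -1.50 in the fit over all 8 libraries.

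In the lists around the members, 14 genes were called. The adjusted p-values that follow are edgeR's, over all 15411 genes, of which 5.91% were called lower and 3.47% higher. Of 8 other primary granule genes, 5 passed the filter, and 0 were called by edgeR, with or without the block, or by DESeq2, with 0 at an unadjusted p under 0.05 in edgeR. The most abundant was Lyz2, lysozyme 2, at 20329 ± 7683 CPM in BMDC and at 29564 ± 4953 CPM in BMDC-fer (log2 fold change 0.54 ± 0.31, adjusted p = 0.277). Lyz1 gave 0.69 ± 0.43 (adjusted p = 0.309). Both lysozymes are also made by macrophages. Bpi was at 0 in all libraries, and Ctsg and Prss57 did not pass the filter. Ctsg, cathepsin G, was singled out after its values were seen because it is a serine protease of the same granules as Elane and Prtn3. It was at 0.322, 0.126, 1.02 and 0.449 CPM in BMDC and 0.121, 0.0245, 0.0479 and 0.0523 CPM in BMDC-fer. A fit without the filter gave a log2 fold change of -2.84 ± 0.70 (adjusted p = 0.0419), where 2.86% of the genes fitted were called lower. In the same fit Prss57 gave -3.30 ± 1.06 (adjusted p = 0.104) and was not called, and its groups overlapped.

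Of 15 other secondary and tertiary granule genes, all passed the filter, 4 fell and 1 rose, and their median log2 fold change was -0.14. Mmp25, a membrane-bound matrix metalloproteinase, fell from 34.7 ± 2.28 to 3.56 ± 2.55 CPM (log2 fold change -3.28 ± 0.43, adjusted p = 0.0044). Itgb2l, an integrin chain, fell by 3.20 ± 0.66 (adjusted p = 0.0203) and Pglyrp1, a peptidoglycan recognition protein, by 2.20 ± 0.41 (adjusted p = 0.0135) on the log2 scale. Cd177, a neutrophil surface protein held in specific granules, fell by 2.01 ± 0.54 (adjusted p = 0.0445) on the log2 scale, although its groups overlapped. Slc11a1, a metal transporter of phagosomes, rose from 58.4 ± 4.19 to 125 ± 20 CPM (adjusted p = 0.00340). Mmp8, neutrophil collagenase, was the most abundant of the list, at 764 ± 346 CPM in BMDC and at 1080.3 ± 365 CPM in BMDC-fer (log2 fold change 0.50 ± 0.37, adjusted p = 0.393). With the block 7 of the 15 were called, and Olfm4 and Fcnb were the 2 added, both lower.

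Of 10 genes listed as protease inhibitors, 9 passed the filter, 3 fell and 1 rose, and all of those called were stefins or cystatins. The stefins Stfa2l1 and Stfa1, which inhibit cysteine proteases, fell by 2.76 ± 0.73 (adjusted p = 0.0427) and 2.65 ± 0.69 (adjusted p = 0.0421) on the log2 scale. Cst3, cystatin C, which dendritic cells and macrophages also make in quantity, fell from 2522 ± 1139 to 1001 ± 365 CPM (adjusted p = 0.0437). Cstb, a cytosolic cystatin, rose from 379.7 ± 98.5 to 688 ± 85.3 CPM (adjusted p = 0.0273). Serpinb1a (log2 fold change -1.16 ± 0.52, adjusted p = 0.173) and Slpi (0.29 ± 0.41, adjusted p = 0.671) were not called. The median log2 fold change of the 9 genes was -1.33.

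Of 15 neutrophil surface and maturation genes, all passed the filter, 5 fell and 0 rose, with a median log2 fold change of -0.76. Over all tested genes 5.91% were called lower. Ly6g, the surface marker of mouse neutrophils, was at 1.57, 0.316, 1.91 and 0.748 CPM in BMDC and at 0.263, 0.0245, 0.287 and 0.0785 CPM in BMDC-fer (log2 fold change -2.75 ± 0.74, adjusted p = 0.0448). Its BMDC libraries ranked as those of S100a9 did, high in replicates 1 and 3. Ifitm6 fell by 2.05 ± 0.20 (adjusted p = 0.00207), Il1r2, the decoy receptor for interleukin 1, by 2.03 ± 0.31 (adjusted p = 0.00690), Trem1, an activating receptor, by 1.76 ± 0.22 (adjusted p = 0.00399) and Mxd1, a repressor in the MYC network, by 0.76 ± 0.21 (adjusted p = 0.0468) on the log2 scale. The adjusted p of Mxd1 was 0.0743 with the block. Across the BMDC libraries Ifitm6 lay between 33.5 and 40.2 CPM and Il1r2 between 122 and 216 CPM. Trem1 lay between 36.1 and 59.5 CPM and Mxd1 between 36.6 and 65.5 CPM. These genes were thus more abundant in BMDC than Ly6g and varied less. Which cells held their transcripts was not tested.

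The 13 regulators and progenitor genes all passed the filter, and 0 were called by edgeR without the block. DESeq2 called 4 lower (Cd34, Klf4, Myb and Ms4a3) and 0 higher. In edgeR 8 had an unadjusted p under 0.05. These were the same 4, with negative log2 fold changes, and Gfi1, Cebpa, Cebpd and Spi1, with positive ones. In Cebpd and Spi1 every BMDC-fer library was above every BMDC library. Cebpd, singled out after its values were seen, had an adjusted p of 0.0492, and of 0.0590 with the block. Its log2 fold change of 0.52 ± 0.14 was too small for a call. Cebpe and Gfi1, transcription factors needed for granule formation, had log2 fold changes of 0.15 ± 0.23 (adjusted p = 0.682) and 0.77 ± 0.31 (adjusted p = 0.134), and were singled out after their values were seen. Spi1, which encodes PU.1, was the most abundant (log2 fold change 0.35 ± 0.12, adjusted p = 0.101). Ms4a3, a gene of granulocyte and monocyte progenitors, had the largest change (-2.84 ± 1.02, adjusted p = 0.101). With the block 3 were called, Myb, Cd34 and Ms4a3, all lower. Receptors for granule and S100 proteins (9 passed), other S100 genes (6 passed) and acute-phase genes (9 passed) had 0 calls by edgeR without the block, with 1, 1 and 2 genes at an unadjusted p under 0.05, and DESeq2 called only Saa3, higher. By mean CPM over all 8 libraries, the most abundant genes of these lists were Itgb2, S100a11 and Saa3, with log2 fold changes of 0.30 ± 0.28 (adjusted p = 0.514), 0.32 ± 0.19 (adjusted p = 0.278) and 0.83 ± 0.26 (adjusted p = 0.0678). Those with the largest log2 fold change were Fpr2 (0.62 ± 0.38, adjusted p = 0.303), S100a1 (0.52 ± 0.31, adjusted p = 0.292) and Nfkbiz (-0.95 ± 0.44, adjusted p = 0.187). With the block, Fpr2 and S100a1 were called higher.

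The libraries held the markers of the labelled cell type. Dendritic cell markers summed to between 6531 and 14653 CPM in BMDC and between 3050 and 7188 CPM in BMDC-fer, none of 8 was at 0, and 3 were called lower (Flt3, Dpp4 and Ccr7). With the block 6 of the 8 were called lower, Cd74, H2-Ab1 and Cd209a being added, and all 8 had a negative log2 fold change with a median of -2.20. The sums were made up mostly of Cd74, H2-Ab1 and Itgax, with BMDC means of 6036, 2112 and 1110 CPM. Flt3, Batf3 and Dpp4 had BMDC means of 3.92, 25.5 and 52.9 CPM. The sums of different lists therefore do not compare amounts of cells. Macrophage markers were also abundant, from 1772 to 3056 CPM in BMDC and from 2151 to 3872 CPM in BMDC-fer. Of 7, 1 was called lower (Adgre1) and 0 higher. Adgre1 was the only one with a negative log2 fold change, and the median was 0.46. The neutrophil markers summed to between 409 and 1113 CPM in BMDC and between 701 and 1447 CPM in BMDC-fer, a sum made up mostly of Mmp8. None of 6 was at 0, and 3 of 6 were called lower (Ly6g, Cd177 and Stfa2l1), the same genes as in the lists above. Csf3r (log2 fold change -0.33 ± 0.42, adjusted p = 0.633), Cxcr2 (-1.29 ± 0.69, adjusted p = 0.239) and Mmp8 were not called. Monocyte markers, 4 of 4 passing the filter, had 0 calls by edgeR or DESeq2 and 0 at an unadjusted p under 0.05. Of the eosinophil markers, Prg2 and Siglecf were called lower and Ear2 higher among 4 that passed. Siglecf had an adjusted p of 0.0476, and of 0.0740 with the block. Mast cell and basophil markers summed to between 12.6 and 41.2 CPM in BMDC and between 4.77 and 12.4 CPM in BMDC-fer, with 0 of 2 called by edgeR without the block, 1 with it (Cpa3, lower) and 2 by DESeq2 (Cpa3 and Gata2, lower, both at an unadjusted p under 0.05 in edgeR). No T or B cell marker passed the filter. The part of a change in cell makeup in the values of the members was not tested.

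The member with the highest mean CPM of each stage was compared with all tested genes. By pattern over the 8 libraries, the genes most like S100a8 were Cd177, Chil1, Olfm4, Ly6g and the member Camp (Pearson r of log2(CPM + 0.5) between 0.96 and 0.97). Prtn3 was most like Gm5586, Gm37472, Tesc, Ddx54 and Mroh2a (0.98 to 0.99). Lcn2 was most like Ess2, Cyb561d1, Rapgef1, Acvr2a and Hnrnpll (0.98 to 0.99), and Retnlg was most like Rnf220, Gm13680, Gls2, Klf5 and Cmtm8 (0.99). With 8 libraries in 2 groups, any gene that differs between the groups can reach a high r.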

How the data were processed

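Transcripts were measured in 4 BMDC and 4 BMDC-fer libraries, grouped and numbered by the sample labels. The study's text describes the 4 as independently collected. The authors mapped the reads with HISAT2 to mm10 and counted them per gene with featureCounts. The deposited table holds raw counts per mouse gene, and it was used unchanged. Versions, the annotation and the use of strand are not given in the sources used here. The submitters' processing notes also name CASAVA and DESeq2. GENCODE M21 (GRCm38) gave symbols for 55141 of 55487 identifiers, and also exon lengths and coordinates.

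Counts were analysed with edgeR 4.0.16 in R 4.3.3 with TMM factors. Filtering by filterByExpr (minimum count 10) kept 15411 genes, and 1445 were called (911 lower and 534 higher in BMDC-fer). The quasi-likelihood p-values were adjusted by the Benjamini-Hochberg method. RPKM were CPM per kb of the union of exons. The members and lists were chosen with earlier results of these data known. All members were named, and from each list up to 5 called genes by absolute log2 fold change, the most abundant gene and, where none was called, the gene with the largest change. For likeness the 5 genes with the highest r to the member of a stage with the highest mean CPM were named.

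Whether the replicate numbers in the labels pair the libraries is not settled. The deviations of same-numbered libraries correlated with r of 0.47, 0.38, 0.33 and 0.38. However, BMDC replicate 3 correlated slightly better with BMDC-fer replicate 4 (0.38), and BMDC replicate 4 with BMDC-fer replicate 3 (0.40). No replicates differed by less than the sampling noise. On simulated counts with 200 changed genes 61.5% were recovered by edgeR, with 8 false calls of 131, over 15138 genes. With the block these were 54% and 6 of 114. The simulation held no replicate effect, so it cannot judge the block on the real libraries. DESeq2 1.42.0 recovered 83% with 61 false among 227 calls over 15407 genes. Alternatives were other normalizations, no filter, DESeq2, the replicate block, each library left out and each set of replicates alone. The human counts made by the authors were not analysed here.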

Additional observations from a re-analysis of the deposited data

Results flagged for a closer look

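A library was flagged where its gap to the nearest library, as a share of the range of the 4, was above Dixon's critical value. With 4 libraries this flags only extreme gaps, and no member had a flagged library. BMDC-fer replicate 1 still stood high for S100a9, at 9.79 CPM beside 0.661, 1.44 and 3.03 CPM. Without it the log2 fold change was -4.86 for S100a9 and -5.23 for Retnlg, beside -3.73 and -4.14 over all 8 libraries. Among the other listed genes that passed the filter, 9 values were flagged. Of 226 groups of 4 libraries, 9 met this, and chance alone flags about 1 in 20, which is 11.3. Stfa2l1 in BMDC-fer replicate 1 was the highest, with a gap of 0.928 of the range, at 1.05 CPM beside 0.196, 0.144 and 0.209 CPM. Saa3 in BMDC-fer replicate 1 was the highest, with a gap of 0.852, at 64.6 CPM beside 38.4, 33.8 and 36.1 CPM. S100a11 in BMDC-fer replicate 2 was the lowest, with a gap of 0.929, at 422 CPM beside 568, 573 and 579 CPM. In BMDC-fer replicate 1, Olfm4 was the highest (gap 0.919) at 0.303 CPM beside 0.0245, 0 and 0 CPM, and Stfa2 was the highest (gap 0.890) at 1.78 CPM beside 0.196, 0 and 0.0785 CPM. In BMDC replicate 1, Ceacam1 was the lowest (gap 0.862) at 27.4 CPM beside 38.5, 38.8 and 40.3 CPM, and S100a10 was the highest (gap 0.833) at 449 CPM beside 346, 326 and 326 CPM. In BMDC replicate 2, Ceacam10 was the lowest (gap 0.853) at 1.33 CPM beside 2.37, 2.27 and 2.22 CPM, and Mertk was the highest (gap 0.892) at 107 CPM beside 80.9, 79.2 and 82.2 CPM.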

How the results depend on the processing

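All 10 members kept a negative log2 fold change in all 15 alternative fits, over a range from -5.23 to -1.16. DESeq2 called 2415 genes, 10 members and 23 wider list genes, beside 1445, 6 and 14. The replicate block called 2000 genes, 10 members and 22 wider list genes. Replicates 1 and 2 alone called 3062 genes, 2 members and 26 wider list genes, and replicates 3 and 4 alone called 5604, 10 and 40. The cause of these shifts was not tested. With each library left out in turn, 565 to 1440 genes, 1 to 8 members and 6 to 15 wider list genes were called. The genes called numbered 862 and 879 without BMDC replicates 3 and 4, and 797, 867 and 565 without BMDC-fer replicates 2, 3 and 4. The wider list genes called numbered 8 without BMDC replicate 3 and 6, 8 and 6 without BMDC-fer replicates 2, 3 and 4. With library totals in place of TMM factors, 79.7% of all calls were lower in BMDC-fer, beside 63.0%, and 6 members were called. By Spearman's rho 2 of the 20 genes most like the members were shared with the list by Pearson's r, and the cause was not tested. With 8 libraries rho takes few values and genes tie. All 5 genes listed for Lcn2 had a rho of 1, for example, and the order among tied genes is arbitrary. Low counts limit Mpo, Elane and Retnlg in BMDC-fer.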
